A study of Mus musculus with 7 samples.

Results

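Genes of DNA replication and mitosis were examined in whole thymus of RelB-/- and RelB+/- mice. The set was named as 32 genes, and every probe whose gene symbol in the platform annotation was one of them was taken. It held 51 of the 25695 probes on the array, for 28 of the 32 genes. The genes were kept in 2 classes, 13 that act at the start or during S phase and 19 that act in G2 and mitosis. A probe was used when its signal passed the detection threshold (detection p under 0.05) on at least 3 arrays. This left 36 probes for 23 of the 9569 genes tested, namely all 13 S phase genes and 10 mitotic genes.

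The array study set 3 RelB-/- mice against 4 RelB+/- mice, each 8 weeks old, with 1 Illumina expression array per mouse. RelB belongs to the NF-kB family of transcription factors and works chiefly in its non-canonical arm. RelB-/- mice carry no intact copy of the gene and RelB+/- mice carry 1, and the sample titles call the RelB+/- mice wild type. The sources used state neither strain, sex nor the disrupted part of the gene. The question was which thymic transcripts differ between the genotypes. The column names of the 7 arrays share 1 number and differ by a letter. What that number stands for is not stated in the sources used.

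The eukaryotic cell cycle copies the genome in S phase and divides it in mitosis. In late G1, cyclin E with its kinase releases E2F transcription factors from retinoblastoma proteins, and E2F activates the genes of replication licensing, nucleotide supply and the replication fork. Mitotic genes are transcribed later, through the DREAM and MMB-FOXM1 complexes that bind a promoter element named CHR, often beside CCAAT boxes bound by NF-Y. In the thymus most division takes place among immature thymocytes, around beta-selection and in the blast stage that precedes small resting double-positive cells. The level of these genes in whole thymus is therefore likely to follow mainly thymocytes, but which cells carried the transcripts was not measured here. In such a bulk sample, fewer cycling cells and less RNA per cycling cell cannot be told apart.

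Promoters of 4 members are shown with these elements, Mcm6 and Top2a for the smallest p-values of their classes and Cdk1 and Cdc20 as mitotic genes with small differences. They are the 120 bases before the annotated start on the gene's own strand, 5′ to 3′, from RefSeq (GRCm38.p6). Capitals mark the words searched, on either strand: CCAAT for the CCAAT box, TTTGAA or TTCGAA for CHR, and TTTCCCGC, TTTCGCGC, TTTGCCGC or TTTGGCGC for E2F.
Mcm6 (chr1:128359706-128359825, minus strand): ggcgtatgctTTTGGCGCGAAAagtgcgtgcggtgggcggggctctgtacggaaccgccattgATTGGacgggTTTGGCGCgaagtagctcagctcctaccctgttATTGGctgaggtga
Top2a (chr11:99024190-99024309, minus strand): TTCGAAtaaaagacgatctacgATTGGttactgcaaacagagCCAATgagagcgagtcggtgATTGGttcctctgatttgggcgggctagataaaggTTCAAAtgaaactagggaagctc
Cdk1 (chr10:69352913-69353032, minus strand): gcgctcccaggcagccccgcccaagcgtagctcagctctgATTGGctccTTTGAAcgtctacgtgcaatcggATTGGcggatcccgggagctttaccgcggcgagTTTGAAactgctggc
Cdc20 (chr4:118437344-118437463, minus strand): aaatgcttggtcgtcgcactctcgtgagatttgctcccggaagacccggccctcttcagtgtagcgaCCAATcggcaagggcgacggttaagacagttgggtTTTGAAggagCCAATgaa

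In the Mcm6 stretch the first capital run holds 2 E2F words on opposite strands that share bases, and the next E2F word stands between 2 CCAAT boxes in reverse orientation. The 3 mitotic promoters shown hold CHR words and CCAAT boxes and no E2F word in these bases. Over windows of 300 bases (250 before and 50 after the start), 12 of the 16 mitotic genes with a RefSeq window held a CHR word (75%), against 2 of 11 S phase genes (18.2%) and 21.7% of 27025 genes. A CCAAT box was present in 14 of 16 mitotic genes (87.5%), in 8 of 11 S phase genes (72.7%) and in 41.1% of all genes. An E2F word was present in 1 of 16 mitotic genes (6.25%), Cdk1, in 6 of 11 S phase genes (54.5%) and in 2.6% of all genes. These are matches of letters within a window and do not show binding.

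Median raw intensity was 105.2 to 142.3 on RelB-/- arrays and 103.5 to 136.1 on RelB+/- arrays, and 45.9% to 49.4% of probes per array were detected. The targeted transcript, Relb, passed detection on none of the RelB-/- arrays and on all 4 RelB+/- arrays. Its raw signal was 102 to 121 in RelB-/- thymus against 180 to 308 in RelB+/- thymus, a fall of at least 4.58-fold (adjusted p = 0.000168 in the limma fit). The T-lineage genes Cd3e, Cd4, Cd8b1 and Rag1 were detected on all 7 arrays, while the probe of Cd8a was detected on none. Heart muscle transcripts stood out on RelB-/- 3 and RelB+/- 2, where the 2 measured heart genes averaged 5.60 and 3.80 log2 units above the RelB+/- mean, and every member's value was therefore also computed without both arrays. Of all 9569 genes, 63 were lower and 10 higher in RelB-/- thymus at a Benjamini-Hochberg adjusted p under 0.05, which is 0.763% of genes called. These counts fell to 34 lower and 6 higher without RelB-/- 1, to 41 and 6 without RelB+/- 1, and the higher count to 3 without RelB+/- 3. They were 23 lower and 2 higher without both heart transcript arrays, 23 and 2 with the authors' processed values, and 23 and 1 with the replicate number as a block.

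None of the 23 measured cell cycle genes passed that test between the genotypes, 0 lower and 0 higher, at a background of 0.763% called (0.658% lower and 0.105% higher). In limma's fit 2 of the 23, Mcm6 and Top2a, had an unadjusted p under 0.05, both lower in RelB-/- thymus, against 13.1% of all genes in either direction (6.28% lower and 6.81% higher). The lowest adjusted p among them was 0.336. None of the 23 had groups that did not overlap, against 13.6% of all genes (6.25% lower and 7.38% higher). Log2 differences (RelB-/- minus RelB+/-) ran from -0.45 to 0.42, 14 were negative and 9 positive, and their median was -0.047, beside a median of 0.025 and 46.2% negative over all genes.

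The intervals of these differences say how large a difference in probe signal the arrays could have missed. For the dim probes of Pcna, Tpx2 and Ccne2, signal over background limits what they say about the transcript. The difference of Pcna was -0.31 under median scaling and -0.057 with the authors' processed values. For 21 of 23 genes the 95% interval lay within a 2-fold change either way, and for 8 it lay within 0.5 log2 units either way. The exceptions to the 2-fold limit were Mcm7, from -0.75 to 1.59, and Tpx2, from -1.02 to 0.49. Over all genes 7875 of 9569 intervals lay within a 2-fold change.

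**Figure D1:**
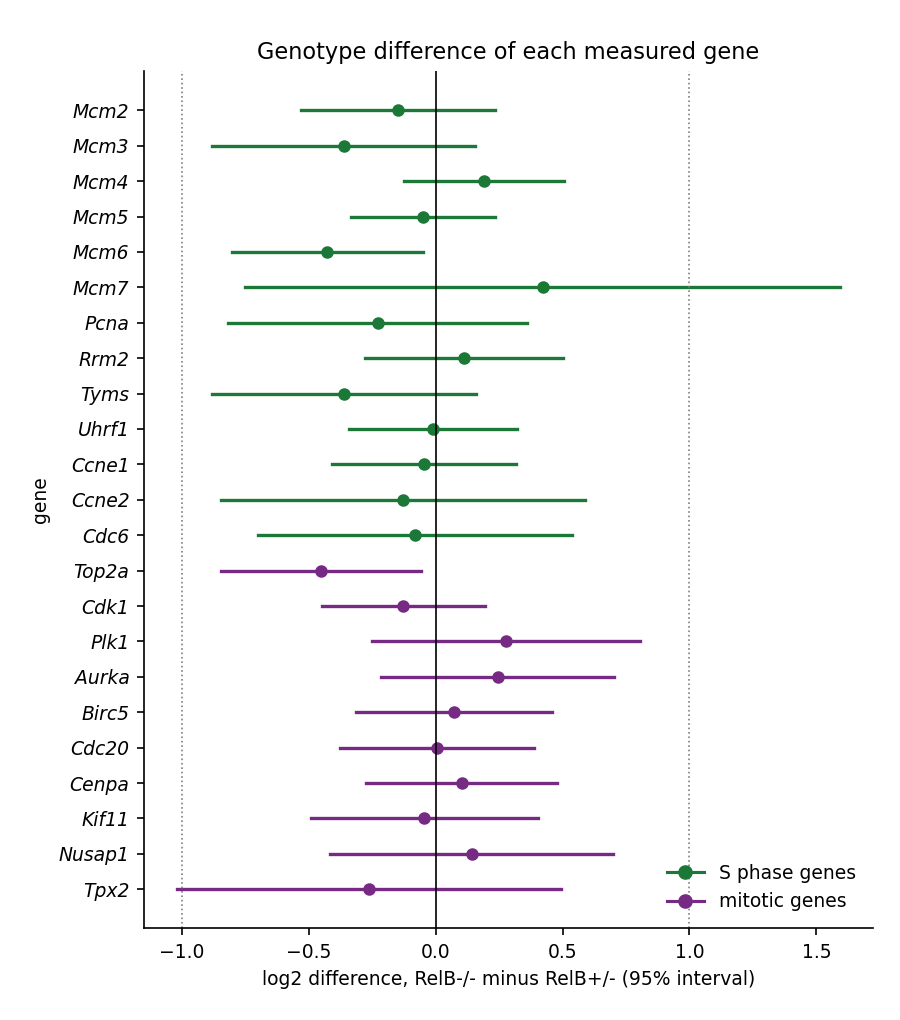
Log2 difference between RelB-/- and RelB+/- thymus (x axis) for each of the 23 measured genes (rows), S phase genes above mitotic genes. Points are the limma estimates from 3 RelB-/- and 4 RelB+/- arrays, lines their 95% intervals, and dotted lines a 2-fold change; the intervals of Mcm6 and Top2a alone leave out 0, and those of Mcm7 and Tpx2 alone reach past a 2-fold change.

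The S phase genes had a median log2 difference of -0.082, with 10 of 13 negative. Mcm2 to Mcm7 encode the subunits of the hexameric helicase that is loaded on replication origins in G1 and unwinds DNA in S phase. In RelB-/- replicates 1 to 3 Mcm6 read 10.86, 10.66 and 10.70, against 11.16, 10.83, 11.31 and 11.38 in RelB+/- replicates 1 to 4 (normalized log2 intensity). The RelB-/- arrays were below 3 of the RelB+/- arrays, and RelB-/- 1 was above RelB+/- 2, so the groups overlapped. The difference was -0.43 (SE 0.165, 95% interval -0.80 to -0.050, limma adjusted p = 0.341). Before normalization the same probe read 1608, 1774 and 2003 in RelB-/- thymus and 2466, 1361, 2742 and 3349 in RelB+/- thymus. The 2 other kept probes of Mcm6 gave differences of -0.27 (adjusted p = 0.527) and -0.26 (adjusted p = 0.57) in the limma fit of all kept probes, where 0.546% of probes were called.

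The remaining helicase subunits had differences of both signs. Mcm3 averaged 8.48 ± 0.24 in RelB-/- and 8.85 ± 0.38 in RelB+/- thymus (SD, n = 3 and n = 4), a difference of -0.36 (SE 0.227, adjusted p = 0.512). Mcm2 differed by -0.15 (SE 0.167, adjusted p = 0.712) and Mcm4 by 0.19 (SE 0.139, adjusted p = 0.573), so 2 subunits of one complex had opposite signs. Mcm5 had the closest means among the 6 subunits, 12.39 ± 0.11 in RelB-/- and 12.44 ± 0.042 in RelB+/- thymus, with a difference of -0.050 and an interval from -0.33 to 0.23. Its 4 RelB+/- arrays read 12.46, 12.49, 12.40 and 12.42, all within the RelB-/- values of 12.37, 12.51 and 12.29.

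Mcm7 was the least certain subunit, and 1 array decided its sign. Its levels were 8.29, 8.75 and 7.80 in RelB-/- replicates, against 8.59, 8.28, 8.21 and 6.35 in RelB+/- replicates. RelB+/- 4 lay far below the other RelB+/- arrays. The difference was 0.42 (SE 0.512, adjusted p = 0.74) with all arrays and -0.083 without RelB+/- 4.

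The other replication genes act before, at or behind the fork. Cdc6 helps load the helicase on origins. Its probe read 6.78, 6.999 and 7.03 on RelB-/- arrays and 7.65, 6.38, 6.93 and 7.12 on RelB+/- arrays, so RelB+/- 1 and RelB+/- 2 enclosed all RelB-/- values. The difference was -0.082 (SE 0.27, adjusted p = 0.917), while a second, dimmer kept probe gave 0.29 (adjusted p = 0.618). The probe of Pcna, the sliding clamp of DNA polymerases, was dim and averaged 5.72 ± 0.28 in RelB-/- and 5.95 ± 0.45 in RelB+/- thymus (SD, n = 3 and n = 4), a difference of -0.23 (adjusted p = 0.716). Uhrf1, which guides maintenance of DNA methylation behind the fork, had a difference of -0.010 with an interval from -0.34 to 0.32.

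The nucleotide supply genes had differences of opposite sign that did not pass the test. Rrm2, the cell cycle-regulated subunit of ribonucleotide reductase, differed by 0.11 (SE 0.171, adjusted p = 0.799), and its second probe by 0.16 (adjusted p = 0.784). Tyms, thymidylate synthase, read 10.24, 10.37 and 10.63 on RelB-/- arrays, against 10.79, 10.51, 11.33 and 10.48 on RelB+/- arrays. RelB+/- 3 was the highest of the 7, and RelB-/- 3 lay above RelB+/- 2 and RelB+/- 4. The difference was -0.36 (SE 0.227, adjusted p = 0.514), and the other 3 kept probes of Tyms gave -0.39, -0.17 and -0.058. The cyclins of G1 exit, Ccne1 (-0.047, SE 0.159, adjusted p = 0.919) and Ccne2 (-0.13, SE 0.314, adjusted p = 0.886), both missed the threshold.

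The mitotic genes had a median log2 difference of 0.038, with 4 of 10 negative. That sign rested on single arrays, since the median was -0.029 without RelB-/- 2, -0.023 without RelB+/- 3 and -0.055 without RelB+/- 4. Top2a, the topoisomerase that untangles chromosomes, read 11.12, 11.40 and 10.95 in RelB-/- replicates, against 11.55, 11.34, 11.78 and 11.77 in RelB+/- replicates. RelB-/- 2 lay above RelB+/- 2, and otherwise every RelB-/- array was below every RelB+/- array. The difference was -0.45 (SE 0.173, 95% interval -0.85 to -0.057, limma adjusted p = 0.336). In raw intensity the probe read 1904, 2884 and 2388 in RelB-/- thymus and 3264, 1889, 3780 and 4274 in RelB+/- thymus.

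Plk1 and Aurka had positive differences that did not pass the test. Plk1, a kinase of centrosome maturation and mitotic exit, read 10.69, 10.83 and 10.61 on RelB-/- arrays, against 10.83, 10.77, 10.14 and 9.99 on RelB+/- arrays. RelB+/- 1 and 2 lay among the RelB-/- values, and RelB+/- 3 and 4 lay below all of them. The difference was 0.28 (SE 0.231, adjusted p = 0.618). Aurka, a kinase of spindle assembly, had 10.61, 10.80 and 10.44 on RelB-/- arrays and 10.81, 10.43, 10.11 and 10.14 on RelB+/- arrays, a difference of 0.24 (SE 0.20, adjusted p = 0.613). Again RelB+/- 3 and 4 were the lowest. Cdk1, the kinase that drives entry into mitosis, varied less, with 10.48 ± 0.057 in RelB-/- and 10.61 ± 0.17 in RelB+/- thymus (SD, n = 3 and n = 4) and a difference of -0.13 (SE 0.14, adjusted p = 0.706).

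Genes of the centromere, spindle and mitotic exit gave small differences as well. Cenpa, the centromeric histone H3 variant, read 13.11, 13.21 and 13.19 on RelB-/- arrays and 13.28, 13.29, 12.87 and 12.83 on RelB+/- arrays, a difference of 0.10 (SE 0.164, adjusted p = 0.812). Nusap1, a spindle microtubule protein, read 9.86, 9.90 and 9.94 on RelB-/- arrays and 10.29, 10.003, 9.31 and 9.43 on RelB+/- arrays, a difference of 0.14 (SE 0.244, adjusted p = 0.827). For both genes the RelB-/- values lay between RelB+/- 1 and 2 above and RelB+/- 3 and 4 below. Cdc20, an activator of the anaphase-promoting complex, differed by 0.0061 with an interval from -0.38 to 0.39. The spindle motor Kif11 differed by -0.046 (SE 0.196, adjusted p = 0.939). Tpx2, an activator of Aurora A, was not detected on RelB-/- 3, and its difference of -0.26 (SE 0.331, adjusted p = 0.747) became 0.10 without that array.

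Birc5, the survivin subunit of the chromosomal passenger complex, depended on the probe. Its brightest probe read 12.07, 12.29 and 12.04 on RelB-/- arrays and 12.32, 12.21, 11.95 and 11.79 on RelB+/- arrays, a difference of 0.070 (SE 0.169, adjusted p = 0.885). Another probe read 10.66, 10.82 and 10.64 on RelB-/- arrays and 11.00, 11.04, 11.21 and 10.75 on RelB+/- arrays, a difference of -0.29 (adjusted p = 0.485). RelB+/- 3 was below all RelB-/- arrays by the first probe and above all of them by the second. Which transcript forms each probe detects is not stated in the sources used.

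Among the 7 genes with several kept probes, Mcm6, Rrm2, Tyms and Nusap1 kept 1 sign over all of them, and Cdc6, Birc5 and Cdc20 did not. Cdc20 had 4 kept probes, with differences of 0.0061, -0.086, -0.095 and 0.47. The last of these was not detected on RelB+/- 4, where it read 4.56, against 6.73 to 7.32 on the other RelB+/- arrays and 6.62 to 7.01 on RelB-/- arrays. No probe of any of the 7 genes passed the test.

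**Figure D2:**
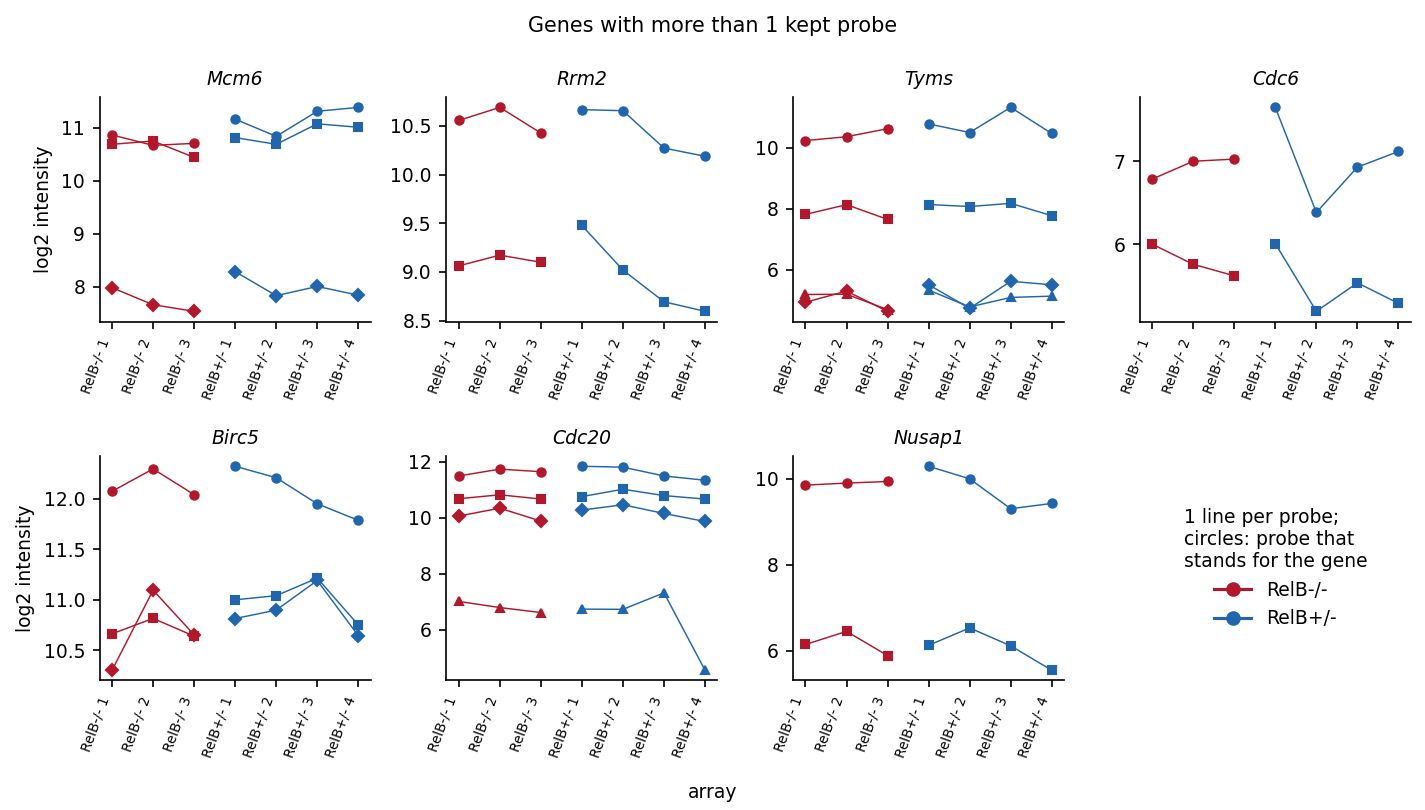
Normalized log2 intensity (y axis) on each array (x axis) for the 7 genes with more than 1 kept probe, 1 line per probe, RelB-/- arrays left of RelB+/- arrays. On RelB+/- 3 the brightest probe of Birc5 is below all RelB-/- arrays while both dimmer probes are above them, and 1 probe of Cdc20 reads 4.56 on RelB+/- 4.

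A further 5 mitotic genes had a probe that failed the detection filter. Ccnb2 (a B-type cyclin), Bub1 (a spindle checkpoint kinase) and Cenpe (a kinetochore motor) each had 1 probe, detected on 0 of 7 arrays. Ccna2 (cyclin A2) and Ube2c (the ubiquitin-conjugating enzyme of the anaphase-promoting complex) each had 1 probe, detected on 1 array, RelB-/- for Ccna2 and RelB+/- for Ube2c. These 5 genes have no measured difference here, and their probes say nothing about whether the transcripts were present. Mki67, Ccnb1, Aurkb and Cdkn3 had no probe under these symbols in the annotation used and were not analysed here.

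The members varied among the mice of one genotype by amounts like their differences between genotypes. The median SD over the 23 genes was 0.138 in RelB-/- thymus and 0.249 in RelB+/- thymus, beside 0.205 and 0.247 over all genes tested, and the median size of their differences was 0.142. Relative to the RelB+/- mean, the median over the 10 mitotic genes was 0.023, 0.145 and 0.001 in RelB-/- replicates 1 to 3, against 0.213, 0.205, -0.161 and -0.234 in RelB+/- replicates 1 to 4. The RelB-/- arrays lay between the higher and the lower pair of RelB+/- arrays. For the 13 S phase genes the medians were -0.123, -0.019 and -0.058 on RelB-/- arrays, and 0.018, 0.026, -0.047 and -0.104 on RelB+/- arrays, a narrower spread in which the groups again overlapped.

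RelB+/- 4 was the lowest of the 7 arrays for 8 of the 23 genes and RelB+/- 1 the highest for 8. Not all members followed this order. Mcm6 and Top2a were highest on RelB+/- 3 and 4, the arrays on which Plk1, Aurka, Cenpa and Nusap1 were lowest. RelB+/- 4 also carried the highest level of erythroid genes, whose 4 measured members averaged 1.24 log2 units above the RelB+/- mean, and its part in the order of the arrays was not tested.

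**Figure D3:**
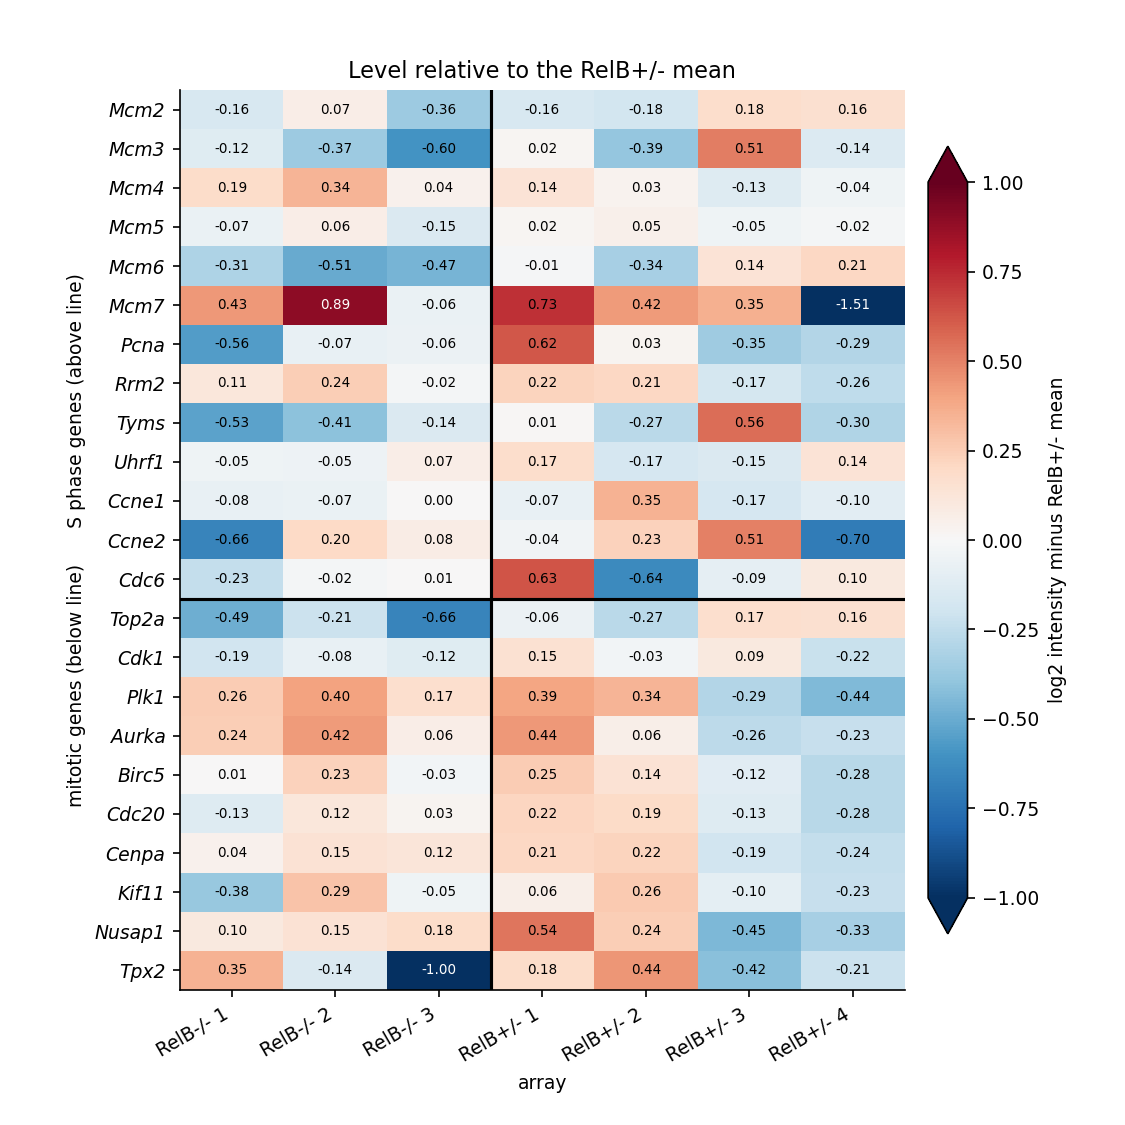
Each cell is a gene's normalized log2 intensity on 1 array minus the mean of the 4 RelB+/- arrays (colour, also printed in the cell), with RelB-/- arrays left of the vertical line and S phase genes above the horizontal line. The RelB+/- columns differ among themselves, with Plk1, Aurka, Cenpa and Nusap1 low and Mcm6 and Top2a high on RelB+/- 3 and 4, and no gene separates the 2 genotypes.

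Other genes of replication and mitosis are given by their counts, at backgrounds of 0.763% called and 13.1% with an unadjusted p under 0.05, so few calls could come from lists of this size. The list of other replication genes had 28 of 41 measured, 0 called, 1 lower and 1 higher at an unadjusted p under 0.05, and a median of 0.0093. Pole, the catalytic subunit of the leading-strand polymerase, had a difference of -0.41 (SE 0.148, adjusted p = 0.314). Its groups did not overlap, which held for 2 of the 28, both lower, and for 13.6% of all genes. Cdc7, a kinase of origin firing, had a difference of 0.47 (SE 0.192, adjusted p = 0.355). The list of other mitotic genes had 34 of 56 measured, 0 called, 0 at an unadjusted p under 0.05 and a median of -0.015. Its smallest p-values belonged to Cenpk, a kinetochore protein (0.38, SE 0.191, adjusted p = 0.43), and Anln, the cytokinesis protein anillin (0.29, SE 0.157, adjusted p = 0.466).

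Array by array, the groups overlapped in these lists too. The other mitotic genes had medians of -0.022, 0.117 and -0.145 on RelB-/- arrays and 0.182, 0.056, -0.073 and -0.092 on RelB+/- arrays relative to the RelB+/- mean. The other replication genes had 0.076, 0.096 and -0.12 on RelB-/- arrays and 0.211, -0.053, 0.006 and -0.153 on RelB+/- arrays. RelB+/- 1 was the highest array in both lists.

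**Figure D4:**
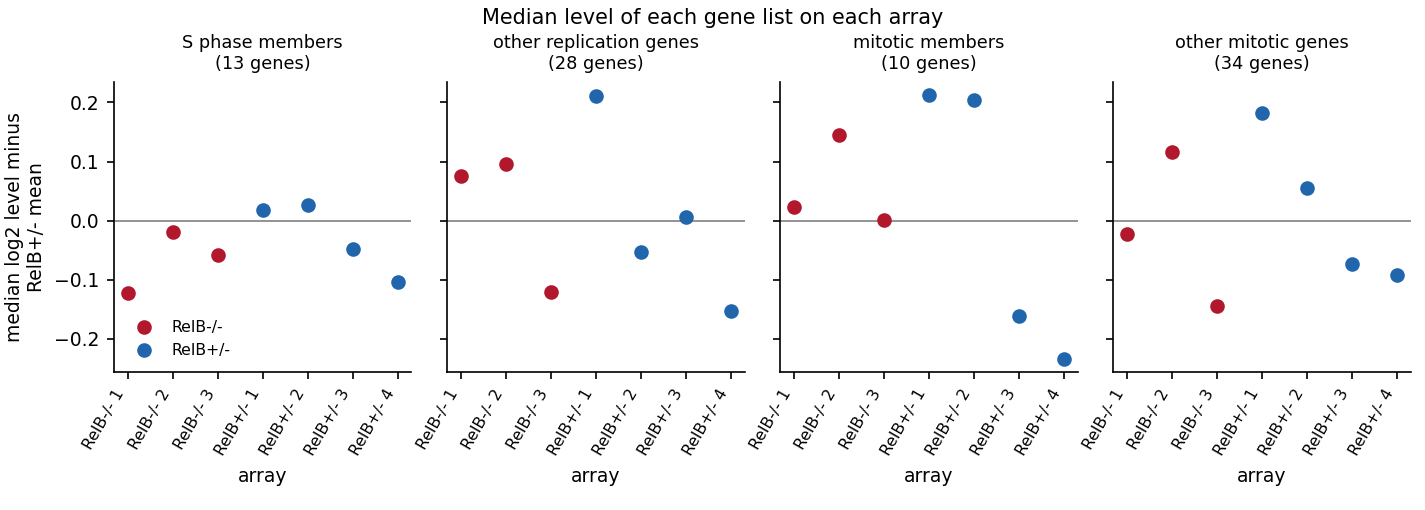
Median over the genes of a list of the log2 level minus the RelB+/- mean (y axis) on each array (x axis), 1 point per array, RelB-/- left of RelB+/-. In each of the 4 lists the RelB-/- points lie within or overlap the range of the RelB+/- points, and RelB+/- 4 is below 0.

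Of 19 measured G1 cyclins, kinases, Rb and E2F genes, which act upstream of S phase, 0 were called, 2 were lower and 1 higher at an unadjusted p under 0.05 (13.1% of all genes in either direction), and the median was 0.092. The median size of their differences was 0.164, beside 0.20 over all genes. Ccnd1, a D-type cyclin of many tissues including epithelium, read 8.01, 8.76 and 8.68 on RelB-/- arrays, against 9.44, 9.32, 9.49 and 9.76 on RelB+/- arrays. All RelB-/- arrays were below all RelB+/- arrays, which held for 1 of the 19 and for 6.25% of all genes. The difference was -1.02 (SE 0.212, adjusted p = 0.101). Lin54, the DREAM subunit that contacts CHR, had a difference of 0.54 (SE 0.229, adjusted p = 0.369).

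Of 13 measured CDK inhibitors, antiproliferative genes and p53 pathway genes, 0 were called, and the median was -0.049. In this list 2 were lower and 2 higher at an unadjusted p under 0.05 in limma's fit (13.1% of all genes in either direction). Cdkn1a, the CDK inhibitor p21 and a target of p53, averaged 7.07 ± 0.15 in RelB-/- and 7.82 ± 0.19 in RelB+/- thymus (SD, n = 3 and n = 4), with no overlap and a difference of -0.75 (SE 0.156, adjusted p = 0.101). Cdkn2b, the CDK4 and CDK6 inhibitor p15, was dim and differed by -0.90 (SE 0.249, adjusted p = 0.218). The 2 with positive differences, named after their values were seen, were Ccng2, cyclin G2 (0.76, SE 0.268, adjusted p = 0.307), and Mdm2, the ubiquitin ligase of p53 (0.50, SE 0.212, adjusted p = 0.371), and their groups did not overlap either. In this list 2 lower and 2 higher genes of 13 had groups without overlap, against 13.6% of all genes (6.25% lower and 7.38% higher).

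Some markers of other cell types were called, at a background of 0.658% of all genes called lower and 0.105% higher. The marker lists were chosen with earlier results of these data known, so their counts are no test of a cell type. The medullary epithelial list had 6 of 8 markers measured and 4 called lower (Aire, Fezf2, Krt14 and Ccl21a), with a summed linear level of 1257 to 1953 on RelB-/- arrays and 6234 to 7436 on RelB+/- arrays. The granulocyte list had 11 of 12 measured and 3 called higher (Mpo, Ctsg and Chil3), with a summed level of 6209 to 24630 on RelB-/- arrays and 786.5 to 8535 on RelB+/- arrays. None of these 3 was called with the replicate block, without the heart transcript arrays or with the authors' processed values, and 1 to 3 were called with 1 array left out. Krt14 was called in 11 of 19 alternatives, and Aire, Fezf2 and Ccl21a in 19 of 19. Aire and Fezf2 were detected on 4 arrays each and passed the filter through RelB+/- arrays, where they are high. Their RelB-/- values of 4.31 to 4.79 were near background, so the size of their differences is uncertain. Over the alternatives it ran from -2.23 to -0.45 for Aire and from -2.58 to -0.58 for Fezf2. Of 4 measured B cell genes 1 was called lower, Fcmr, in 15 of 19 alternatives. Fcmr, Ctsg and Chil3 were detected on 5 arrays and Mpo on 6. The erythroid, cortical epithelial, heart, adipocyte and thymocyte lists held 0 called genes. The summed level of the 6 measured cortical epithelial genes was 5787 to 7269 on RelB-/- arrays and 7618 to 10810 on RelB+/- arrays, with no overlap. Krt18 (-0.97, limma adjusted p = 0.218) and Krt8 (-0.94, adjusted p = 0.236) had the smallest p and made up a large part of this sum. Only these 2 of the 6 had groups that did not overlap, both lower, against 6.25% of all genes. Ly75 (-0.22, adjusted p = 0.622) and Prss16 (-0.25, adjusted p = 0.742) overlapped between the groups, so the sum does not stand for the list. The median difference of the 6 genes was -0.23, with 5 negative and 1 positive. By the median of the 6 genes relative to the RelB+/- mean, the groups overlapped. These medians were -0.39, 0.102 and -0.522 on RelB-/- arrays and -0.034, -0.458, 0.209 and 0.354 on RelB+/- arrays. Early thymocyte markers (9 of 10 measured) had a median difference of 0.19, double-positive markers (8 of 11) 0.17 and mature single-positive markers (6 of 9) 0.028. The double-positive summed level was 43820 to 49390 on RelB-/- arrays and 39770 to 41600 on RelB+/- arrays. Its brightest gene, Cd8b1, differed by 0.17 (limma adjusted p = 0.55). The mature single-positive summed level was 5282 to 6160 on RelB-/- arrays and 4278 to 5034 on RelB+/- arrays. Most of each sum was 1 gene, Cd8b1 for the double-positive list and Gimap6 for the mature single-positive list. Gimap6 differed by 0.44 (limma adjusted p = 0.367), with groups that overlapped. Il7r, the mature single-positive marker with the smallest p, differed by -0.45 (adjusted p = 0.31), and all its RelB-/- arrays were below all RelB+/- arrays. That held for 1 of the 6 and for 6.25% of all genes. The 6 measured markers had 3 negative and 3 positive differences. In both lists the sums did not overlap between the genotypes, while the medians on each array did. For double-positive markers this median was 0.138 on RelB-/- 3 and 0.159 on RelB+/- 1. The part of these compartments in the cell cycle values was not tested.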

How the data were processed

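The deposited raw signals are probe intensity values on a linear scale, not normalized between arrays, per the file headers. A detection p-value per probe and array was deposited with them, per the file headers. A table of processed log2 values from the authors was used as an alternative; how it was normalized is not given in the sources used here. The submitters' processing notes name GenomeStudio. Signals were background-corrected by normexp with the detection p-values (offset 16), quantile normalized and log2 transformed with limma 3.58.1 in R 4.3.3. The 12465 probes with a detection p under 0.05 on 3 or more arrays were tested, and the brightest kept probe stood for each gene. Of 25695 probes, 23976 had 1 symbol, 0 several and 1719 none. All 51 member probes matched the RefSeq gene table by gene ID, with the same symbol. The genotypes were compared with lmFit and eBayes, 2-sided, adjusted over all 9569 genes or all 12465 probes. Intervals are limma's 95% intervals.

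The members, lists and alternatives were chosen with earlier results of these data known. Named were Relb, the 32 members and, in the other lists, called genes or the 2 with the smallest p, plus Ccng2 and Mdm2. Cell type lists are given by counts, summed levels, median differences and called genes, some also by their median on each array. Added were Krt18, Krt8, Ly75 and Prss16 for cortical epithelium, Gimap6 and Il7r for mature single-positive thymocytes, and a check of T-lineage genes. Some of these were named after their values were seen. The fit was tested on simulated data. Lists were described by counts and medians without a test. Promoter sequences were available from RefSeq for 27 of 32 members. Alternatives changed the background correction, scaling, filter, probe choice, model or arrays used. Arrays give no counts, so their number limits the precision. Figures used matplotlib 3.10.9.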

Additional observations from a re-analysis of the deposited data

Results flagged for a closer look

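In the RelB+/- group of 4 arrays, 38 values of the members were examined for an array far from the other 3, using the gap to its neighbour as a share of the group's range. The limit was Dixon's 95% critical value, and chance passes it in about 1 of 20 groups. Of the 38 values 2 passed it, about the number that chance gives at that rate. The share was 0.83 for Mcm7 (probe ILMN_2673889), where RelB+/- 4 read 6.35 against 8.21 to 8.59 on the other RelB+/- arrays. It was 0.871 for a dim probe of Tyms (ILMN_2441895), where RelB+/- 2 read 4.74 and was not detected, against 5.51 to 5.63 on the other RelB+/- arrays. The part of any array's quality in these values was not tested.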

How the results depend on the processing

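No cell cycle gene was called under any of the alternatives or with any 1 array left out, and the lowest adjusted p of a member was 0.243. The count of all genes lower in RelB-/- thymus, 63, became 23 with the authors' processed values, 23 with the replicate block and 23 without both arrays with heart muscle transcripts, and ran from 34 to 64 with 1 array left out. The count of genes higher, 10, became 6 without background correction, 2 with the authors' values, 6 without the detection filter, 1 with the replicate block and 2 without the heart transcript arrays, and ran from 3 to 8 with 1 array left out. The S phase median was -0.199 under median scaling, where the median of all genes was -0.031. Dropping the detection filter, adding an intensity trend or fitting every kept probe left each measured member's difference as in the main fit. Signs could not change there, so those values are no separate check. With them included, 263 of 276 member values under alternatives other than leaving out 1 array kept their sign. The 13 others were Mcm5 (0.015), Ccne1 (0.044), Kif11 (0.042) and Tpx2 (0.25) without the heart transcript arrays, Uhrf1 under median scaling (0.017), Cdc6 (0.10) and Birc5 (-0.14) as means of probes, Cdc20 under cyclic loess (-0.028) and array weights (-0.028), and Mcm7 (-0.083), Uhrf1 (0.036), Birc5 (-0.023) and Cdc20 (-0.087) with the replicate block. With 1 array left out, 142 of 161 values kept their sign, and 10 genes spanned 0: Mcm7 (-0.083 to 0.67), Uhrf1 (-0.065 to 0.049), Ccne1 (-0.10 to 0.069), Ccne2 (-0.36 to 0.14), Cdc6 (-0.29 to 0.13), Birc5 (-0.023 to 0.16), Cdc20 (-0.087 to 0.079), Kif11 (-0.21 to 0.12), Nusap1 (-0.0088 to 0.32) and Tpx2 (-0.57 to 0.10). The cause of these changes was not tested. Same-numbered arrays correlated at 0.318, -0.179 and -0.201 in their deviations from the group means, and arrays of unlike number at -0.398 to 0.323. These values do not decide whether the numbers pair mice. The mitotic median was -0.055 with the replicate block, the same as without RelB+/- 4. RelB+/- 4 has no RelB-/- array of the same number, so the block leaves it without weight in the difference. With the block, the differences of all members therefore equalled those without RelB+/- 4. The sign changes of Mcm7, Uhrf1, Birc5 and Cdc20 with the block repeat that omission and are no separate check. Signal over background limits the dim probes of Pcna, Tpx2 and Ccne2.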
